A study of Mus musculus with 4 samples.

Results

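The nuclear genes of the mitochondrial respiratory chain were followed through single enteroendocrine-lineage cells of mouse enteroids. Members were chosen by symbol: genes beginning with Ndufa, Ndufb, Ndufc, Ndufs or Ndufv, Uqcr, Cox4 to Cox8 or Atp5, and Sdha, Sdhb, Sdhc and Sdhd, without symbols that end in -ps. This gave 93 of the 29161 genes in the count table: 39 of complex I, 8 assembly factors of complex I (the Ndufaf genes), 4 of complex II, 8 of complex III, 17 of complex IV and 17 of complex V. The annotation calls 4 of them processed pseudogenes (Cox6c2, Ndufa11b, Ndufb4c and Ndufs6b). Such copies can share reads with their parent genes, so both were read with that limit.

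Enteroids are epithelial mini-guts grown in Matrigel. Those used here were made from small intestine (duodenum or jejunum) of Neurog3eYFP/+ female mice of the CD1 strain, in which 1 copy of Neurog3, the gene that commits intestinal progenitors to the endocrine fate, carries a yellow fluorescent reporter. Living eYFP-positive cells were sorted into 4 plates with 92 cells and 4 empty wells each, and 290 cells were in the table. Plate 1 was duodenum from mice of 39 weeks, plates 2 and 3 were duodenum at 12 weeks, and plate 4 was jejunum at 12 weeks. All cells carried the reporter allele, and reporter protein can outlast Neurog3 transcription, so the sort held cells of several states.

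Cells were placed in 3 groups. Neurog3-positive cells, with at least 5 Neurog3 counts, numbered 50 (7, 12, 24 and 7 in plates 1 to 4). Of the rest, Chgb-high cells had at least 10000 counts of Chgb per 1000000 counts of the cell (CPM), the chromogranin B of endocrine secretory granules, and numbered 107 (22, 34, 18 and 33). Chgb-low cells, under 2000 CPM, numbered 115 (41, 32, 26 and 16). The remaining 18 cells entered no group. At the limits, the cells nearest to the Neurog3 limit had 5 and 3 counts, those at the upper Chgb limit 10095 and 9804 CPM, and those at the lower one 1712 and 2198 CPM.

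The groups were checked against markers listed for the cell types of the gut. Since Chgb itself defined the groups, it was left out of the enteroendocrine markers. The sum of the other 9 (Chga, Neurod1, Pcsk1 and others) was at 4848 to 13221 CPM in the Chgb-high cells of the 4 plates, 535 to 3168 CPM in the Chgb-low cells and 2003 to 3439 CPM in the Neurog3-positive cells. Of the 13 listed goblet and Paneth markers, all of which were present in both Chgb groups, the sum was 20733 to 33235 CPM in Chgb-low cells, 1026 to 2228 CPM in Chgb-high cells and 3966 to 25511 CPM in Neurog3-positive cells. The Chgb-low group thus held cells with goblet and Paneth transcripts in every plate, beside any early endocrine cells. Plates held 23893272 to 46490618 counts and single cells 202711 to 2312044. Plates, not cells, were the replicates. For the cell groups, the p-values set a difference against its variation between plates, since the sources used here do not say which cultures or mice fed each plate.

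The respiratory chain passes electrons from NADH (complex I) and succinate (complex II) through complex III to oxygen at complex IV, and complex V uses the resulting proton gradient to make ATP. Most subunits are encoded in the nucleus and imported, while a small set of core subunits is encoded by the mitochondrial genome. Nuclear respiratory factors NRF1 and GABPA (NRF2), YY1 and estrogen-related receptors are known regulators of many of the nuclear genes.

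Promoters of 4 genes are shown because their genes carry the contrasts described next: Ndufa6, Uqcrh and Cox7c were the members called between the Chgb groups, and Ndufv3 was the 1 member higher at an unadjusted p under 0.05. Each is the 250 bases before the start of the gene in RefSeq (GRCm38.p6), 5′ to 3′ on the gene's strand, and capitals mark a match to one of 4 motifs on either strand.
Ndufa6 (chr15:82354292-82354541, minus strand): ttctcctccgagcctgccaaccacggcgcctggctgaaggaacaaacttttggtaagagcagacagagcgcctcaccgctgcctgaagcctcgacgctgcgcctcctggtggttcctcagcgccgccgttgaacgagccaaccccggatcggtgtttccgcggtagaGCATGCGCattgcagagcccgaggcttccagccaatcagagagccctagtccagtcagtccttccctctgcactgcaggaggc
Uqcrh (chr4:116075071-116075320, minus strand): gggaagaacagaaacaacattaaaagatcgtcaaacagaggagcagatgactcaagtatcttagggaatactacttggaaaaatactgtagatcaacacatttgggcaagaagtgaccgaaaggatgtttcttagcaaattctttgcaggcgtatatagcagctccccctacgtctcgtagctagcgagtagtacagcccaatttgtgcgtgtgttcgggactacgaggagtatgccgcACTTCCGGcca
Cox7c (chr13:86046796-86047045, minus strand): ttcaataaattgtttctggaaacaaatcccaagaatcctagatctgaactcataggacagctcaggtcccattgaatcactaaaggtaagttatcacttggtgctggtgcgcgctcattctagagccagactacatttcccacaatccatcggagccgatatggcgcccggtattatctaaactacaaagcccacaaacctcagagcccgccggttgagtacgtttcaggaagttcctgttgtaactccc
Ndufv3 (chr17:31519865-31520114, plus strand): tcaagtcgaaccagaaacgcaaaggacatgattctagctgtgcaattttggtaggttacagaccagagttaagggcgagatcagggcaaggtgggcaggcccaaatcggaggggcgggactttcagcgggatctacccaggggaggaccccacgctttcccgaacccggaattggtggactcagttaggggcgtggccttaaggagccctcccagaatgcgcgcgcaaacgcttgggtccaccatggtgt
In Ndufa6 the capitals are the NRF1 motif GCGCATGC on the opposite strand, beginning 83 bases before the start. In Uqcrh they are the GABPA motif CCGGAAGT on the opposite strand, 11 bases before the start. Cox7c and Ndufv3 held none of the 4 motifs, which says only that these letters are not in these windows.

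Over the windows of 300 bases, 250 before and 50 after the start, 74 of the 93 members had an entry and gave 79 promoters. The NRF1 motif was in 12 of the 79 (15.2%) and in 2.71% of all 32851 promoters of that length. The YY1 motif AAGATGGC was in 10 (12.7%, against 2.75% of all). GABPA was in 5 (6.33%, against 3.89%), and the estrogen-related receptor motif TCAAGGTCA was in 2, those of Atp5g3 and Sdhd (2.53%, against 0.423%). The NRF1 matches spanned every complex, with Ndufa6, Ndufa8 and Ndufa11 of complex I, Sdhb of II, Uqcr11 and Uqcrc1 of III, Cox6a1 of IV and Atp5g2, Atp5k and Atp5l of V. In all, 28 of the 74 members held at least 1 motif. A match is a description of the letters, not a binding site.

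Members together made up 23131 CPM of plate 1, 30991 of plate 2, 32259 of plate 3 and 31181 of plate 4. Plate 1 was the lowest. In single cells the summed level ran from 5447 to 59183 CPM around a median of 28301 CPM. Complexes I, IV and V supplied most of it, at 7210 to 9775, 6626 to 8749 and 6274 to 9803 CPM of whole plates. Complex III gave 2484 to 4232, complex II 252 to 389 and the assembly factors 280 to 315. The median member was counted at least once in 97.6% of cells for complex V, 95.5% for III, 94.5% for IV, 82.4% for I, 69.7% for II and 22.9% for the assembly factors. Uqcrh, Cox4i1, Cox7c and Ndufa2 were counted in 100% of cells.

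Some complex IV and V subunits exist as paralogs with tissue-typical use, and the table showed 1 main form of most. Per length, in transcripts per 1000000 (TPM) of whole plates, Cox6a1 was at 1970 to 2988 TPM, Cox6b1 at 3336 to 4122 and Cox4i1 at 1291 to 3120. Cox6b2, known from testis, was counted in 0.69% of cells, and Cox8b, known from muscle and brown fat, in 0.345%, whereas Cox8a was at 1288 to 2507 TPM. Cox7a1, the heart and muscle form, was counted in 36.9% of cells and reached 53.8 to 208 TPM, below Cox7a2 (562 to 1102 TPM) and Cox7a2l (618 to 1004 TPM), a factor of supercomplex assembly. Of the 3 genes for the same mature c-ring subunit of ATP synthase, Atp5g3 was at 841 to 1802 TPM, Atp5g1 at 61.9 to 127 and Atp5g2 at 4.82 to 21.2, with no overlap between them across plates. Cox4i2, Cox6a2, Cox8c and Ndufa4l2 had no entry under these symbols in the count table, so they were not analysed here.

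The main comparison asked how the chain differs between Chgb-high and Chgb-low cells. Of the 89 members tested, 3 were lower in Chgb-high cells and 0 were higher at an adjusted p under 0.05 (edgeR's quasi-likelihood test with plate as a block, Benjamini-Hochberg over 12559 genes). Over all genes tested, 1.81% were called lower and 0.971% higher. The 3 called members came from complexes I, III and IV. Fold changes of members had a median of -0.53 on the log2 scale against 0.10 for all genes, and 80 of 89 were negative, against 47.3% of all genes. At an unadjusted p under 0.05, 26 members were lower (29.2%, against 8.35% of all genes) and 1 was higher. The 4 members not tested for low counts were Ndufb4c, Cox6b2, Cox7b2 and Cox8b.

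The scaling bears on all of these values. With library totals in place of TMM factors, the median of all genes moved to 0.40 and that of members to -0.21, so members lay about as far below the other genes as before, while 66 of 89 rather than 80 stood below 0. Under that scaling Uqcrh remained called lower (adjusted p = 0.0405), and Ndufv3 was called higher (adjusted p = 0.0437). DESeq2 called 16 members lower (18%) and 0 higher, against 6.16% and 6.66% of all genes. Leaving out any 1 plate gave 0 members called lower, or 1 without plate 3, and 0 were called without the plate block. Shares of all genes called were not worked out for these fits or for library totals.

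Ndufa6, an accessory subunit of the matrix arm of complex I (chr15:82350140-82354322), was at 487, 492, 1030 and 833 CPM in the Chgb-high cells of plates 1 to 4 and at 964, 997, 1272 and 1752 CPM in the Chgb-low cells. It was lower in Chgb-high cells within every plate, although plate 3 of the first overlapped plates 1 and 2 of the second. The log2 fold change was -1.15 ± 0.19 (SE, n = 4 plates; edgeR adjusted p = 0.0101). Neurog3-positive cells were at 732, 679, 1223 and 790 CPM, between both Chgb groups in plates 1 to 3.

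Uqcrh, the hinge protein of complex III that sits beside cytochrome c1 (chr4:116066965-116075071), was at 661, 1011, 1169 and 1273 CPM in Chgb-high cells and at 1200, 1935, 1810 and 1902 CPM in Chgb-low cells. Within plates all 4 pairs went the same way, and only plate 1 of the Chgb-low cells reached into the Chgb-high range. The log2 fold change was -1.06 ± 0.18 (SE, n = 4 plates; edgeR adjusted p = 0.0144). In Neurog3-positive cells it stood at 920, 1314, 2085 and 2014 CPM, above the Chgb-high cells in each plate.

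Cox7c, a small nuclear subunit of complex IV (chr13:86044816-86046904), was at 287, 347, 579 and 509 CPM in Chgb-high cells and at 578, 610, 606 and 819 CPM in Chgb-low cells. The 2 groups met at about the same level, in plate 3 of the first and plate 1 of the second. The log2 fold change was -0.95 ± 0.19 (SE, n = 4 plates; edgeR adjusted p = 0.0308). All 3 calls were lost when plate 1, plate 2 or plate 4 was left out, and without plate 3 only Ndufa6 kept its call; their log2 fold changes ranged from -0.84 to -1.34 over those 4 fits.

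**Figure D1:**
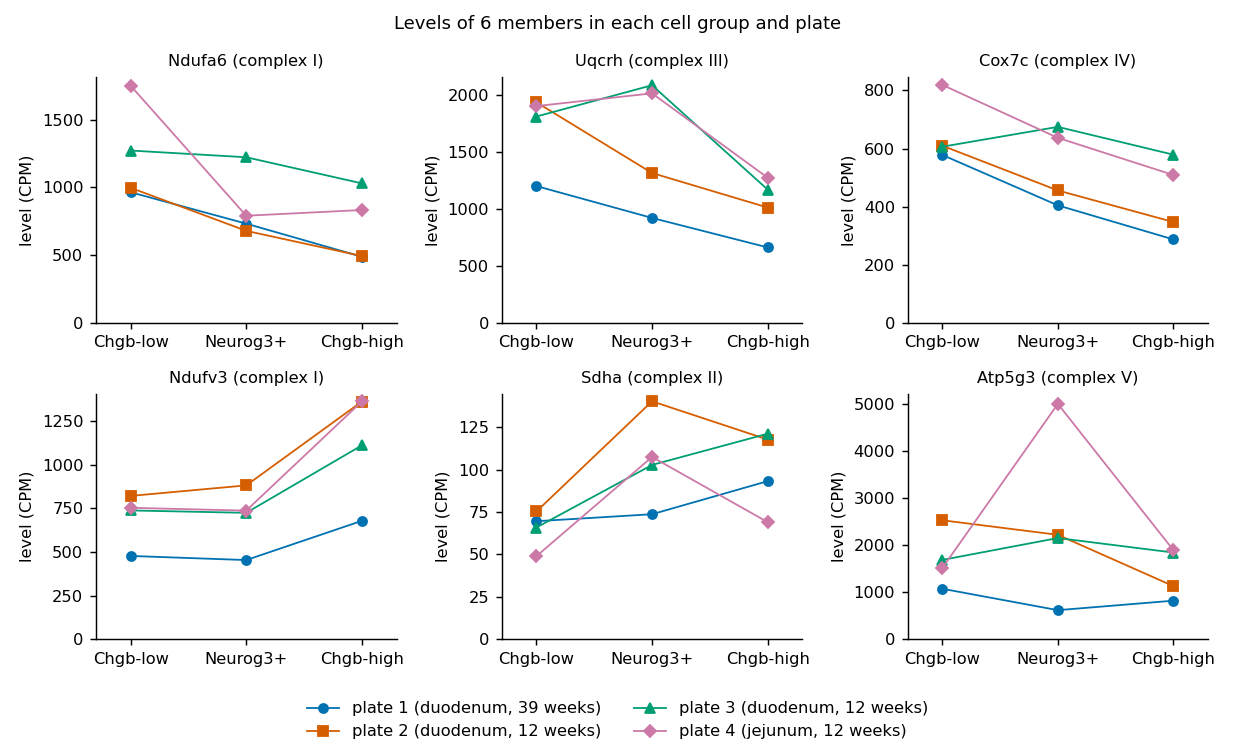
Levels of 6 members (y axis, CPM of summed counts) in Chgb-low, Neurog3-positive and Chgb-high cells (x axis), with 1 line for each of the 4 plates and no error bars because each point is 1 sum. Ndufa6, Uqcrh and Cox7c were lower in Chgb-high than in Chgb-low cells in all 4 plates, Ndufv3 and Sdha were higher, and Atp5g3 reached 4998 CPM in the 7 Neurog3-positive cells of plate 4.

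Most complex I members had fold changes of the same sign as Ndufa6. Of 38 tested, 34 were negative (29 with library totals), and the median was -0.53 on the log2 scale. At an unadjusted p under 0.05, 9 were lower (23.7%, against 8.35% of all genes), and DESeq2 called 5 lower (13.2%, against 6.16%). Ndufb6, a membrane-arm subunit, had the largest estimate at -2.40 ± 0.98 (adjusted p = 0.273 by edgeR and 0.018 by DESeq2). Its Chgb-high level was 1.27 CPM in plate 1, from counts in 2 of 22 cells, and 56.9 to 106 CPM in the other plates, against 33.5 to 206 CPM in Chgb-low cells. Ndufb7 had the smallest, at 0.01 ± 0.31.

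Ndufv3, a small subunit of the NADH-oxidising flavoprotein part, had a fold change of the opposite sign. It was at 679, 1364, 1112 and 1365 CPM in Chgb-high cells and at 477, 822, 739 and 754 CPM in Chgb-low cells, higher within each plate, and singled out here after its values were seen. The log2 fold change was 0.37 ± 0.16 with TMM factors, which did not pass (edgeR adjusted p = 0.278), and 0.68 with library totals, which did, as given above. Neurog3-positive cells, at 454, 883, 725 and 738 CPM, lay near the Chgb-low cells. Against Chgb-high cells, the Neurog3-positive cells stood at -0.60 ± 0.16 on the log2 scale (adjusted p = 0.164 by edgeR). Ndufs1, which carries iron-sulfur clusters, also had a positive estimate, 0.95 ± 0.67 (adjusted p = 0.561).

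Assembly factors of complex I were sparsely counted. Of the 8, 0 passed (0 at an unadjusted p under 0.05 and 0 by DESeq2), and standard errors ran from 0.45 for Ndufaf8 to 2.39 for Ndufaf1. Ndufaf1 had 0 counts in the 7, 12 and 7 Neurog3-positive cells of plates 1, 2 and 4. It also had 0 in the 22 Chgb-high cells of plate 1. Counts were in 1 of 18 Chgb-high cells of plate 3 and in 2 of 41 Chgb-low cells of plate 1.

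Complex II, the succinate dehydrogenase shared with the tricarboxylic acid cycle, had members of both signs. Sdha, its flavoprotein, was at 93.2, 118, 121 and 69 CPM in Chgb-high cells and at 69.5, 75.3, 65.8 and 48.9 CPM in Chgb-low cells. It was higher within each plate, with overlap across plates, and its log2 fold change of 0.31 ± 0.33 did not pass (adjusted p = 0.747 by edgeR). Sdhb, the iron-sulfur subunit, had -0.50 ± 0.37, and the membrane anchors Sdhc and Sdhd had -0.05 ± 0.39 and -0.52 ± 0.86. The summed level of the 4 genes in Chgb-high to Chgb-low cells gave log2 ratios of 0.03, -0.30, 0.21 and 0.76 in plates 1 to 4 by library totals, with a mean of 0.18. With TMM factors they were -0.23, -0.64, -0.22 and 0.57, with a mean of -0.13, so the direction depended on the scaling. Whether complex II differs from the other complexes was not tested.

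In complex III, which hands electrons to cytochrome c, all 8 members had negative fold changes (median -0.75). With library totals it was 7 of 8, since Uqcrb changed sign. At an unadjusted p under 0.05, 5 were lower (62.5%, against 8.35% of all genes), and DESeq2 called 4 lower (50%, against 6.16%). The sum was at 1900, 3010, 3554 and 3611 CPM in Chgb-high cells against 2915, 4793, 4488 and 4535 CPM in Chgb-low cells. The ratio was below 1 in all 4 plates, at a mean log2 ratio of -0.49 ± 0.18 (SD, n = 4 plates). Uqcrc2, a core subunit, had the largest estimate, -1.39 ± 0.49 (adjusted p = 0.209 by edgeR and 0.0388 by DESeq2). Uqcrb, which binds ubiquinone, had the smallest at -0.26 ± 0.24.

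In complex IV, cytochrome c oxidase, all 14 tested members had negative estimates (median -0.80). With library totals it was 11 of 14, since Cox7a1, Cox7a2l and Cox8a changed sign. At an unadjusted p under 0.05, 9 were lower (64.3%, against 8.35% of all genes). The sum was at 4592, 6178, 7550 and 7681 CPM in Chgb-high cells against 8110, 11429, 8667 and 8270 CPM in Chgb-low cells. The difference was larger in plates 1 and 2, with log2 ratios of -0.82 and -0.89 against -0.20 and -0.11 in plates 3 and 4. Cox4i1, the largest nuclear subunit of the complex, was at 895, 1523, 1465 and 987 CPM against 1394, 3482, 1530 and 1204 CPM. It missed the threshold (log2 fold change -0.85 ± 0.19, n = 4 plates; edgeR adjusted p = 0.0556). Cox7b, at -1.16 ± 0.29, had the largest estimate of the complex (adjusted p = 0.0741 by edgeR), and Cox8a the smallest, -0.24 ± 0.24. Cox6a1, Cox6b1, Cox7a2 and Ndufa4, a subunit now placed in complex IV, were at -1.05, -0.80, -0.79 and -0.96. All were lower in 4 of 4 plates, as were 16.3% of all genes with TMM factors, and none passed by edgeR. DESeq2 called 6 of the 14 members lower (42.9%, against 6.16% of all genes), among them Cox4i1, Cox7b, Cox6a1 and Cox6b1. Cox7a2l and Cox7a1 were at -0.31 ± 0.25 and -0.36 ± 1.73.

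Complex V, the ATP synthase, had 15 negative estimates among its 17 members (median -0.47; 13 with library totals), and 0 passed by edgeR. At an unadjusted p under 0.05, 3 were lower (17.6%, against 8.35% of all genes). DESeq2 called 1 lower, Atp5mpl (5.88%, against 6.16% of all genes). Its sum was at 5197, 7725, 9730 and 9280 CPM in Chgb-high and 6924, 10640, 10053 and 8211 CPM in Chgb-low cells, lower in the 3 duodenum plates and higher in the jejunum plate, where the log2 ratio was 0.18 by library totals but -0.02 with TMM factors. Atp5mpl, a small proteolipid subunit, had -0.83 ± 0.21 (edgeR adjusted p = 0.0741), and Atp5c1, the central stalk, -0.10 ± 0.20. Atp5l had the largest estimate, 1.15 ± 1.03, at only 17.0 to 77.1 CPM in Chgb-high cells, with 75.6% of the counts of plate 3 in 1 cell. Atp5g1, Atp5g2 and Atp5g3 were at -0.63 ± 0.49, -0.65 ± 1.09 and -0.64 ± 0.38.

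**Figure D2:**
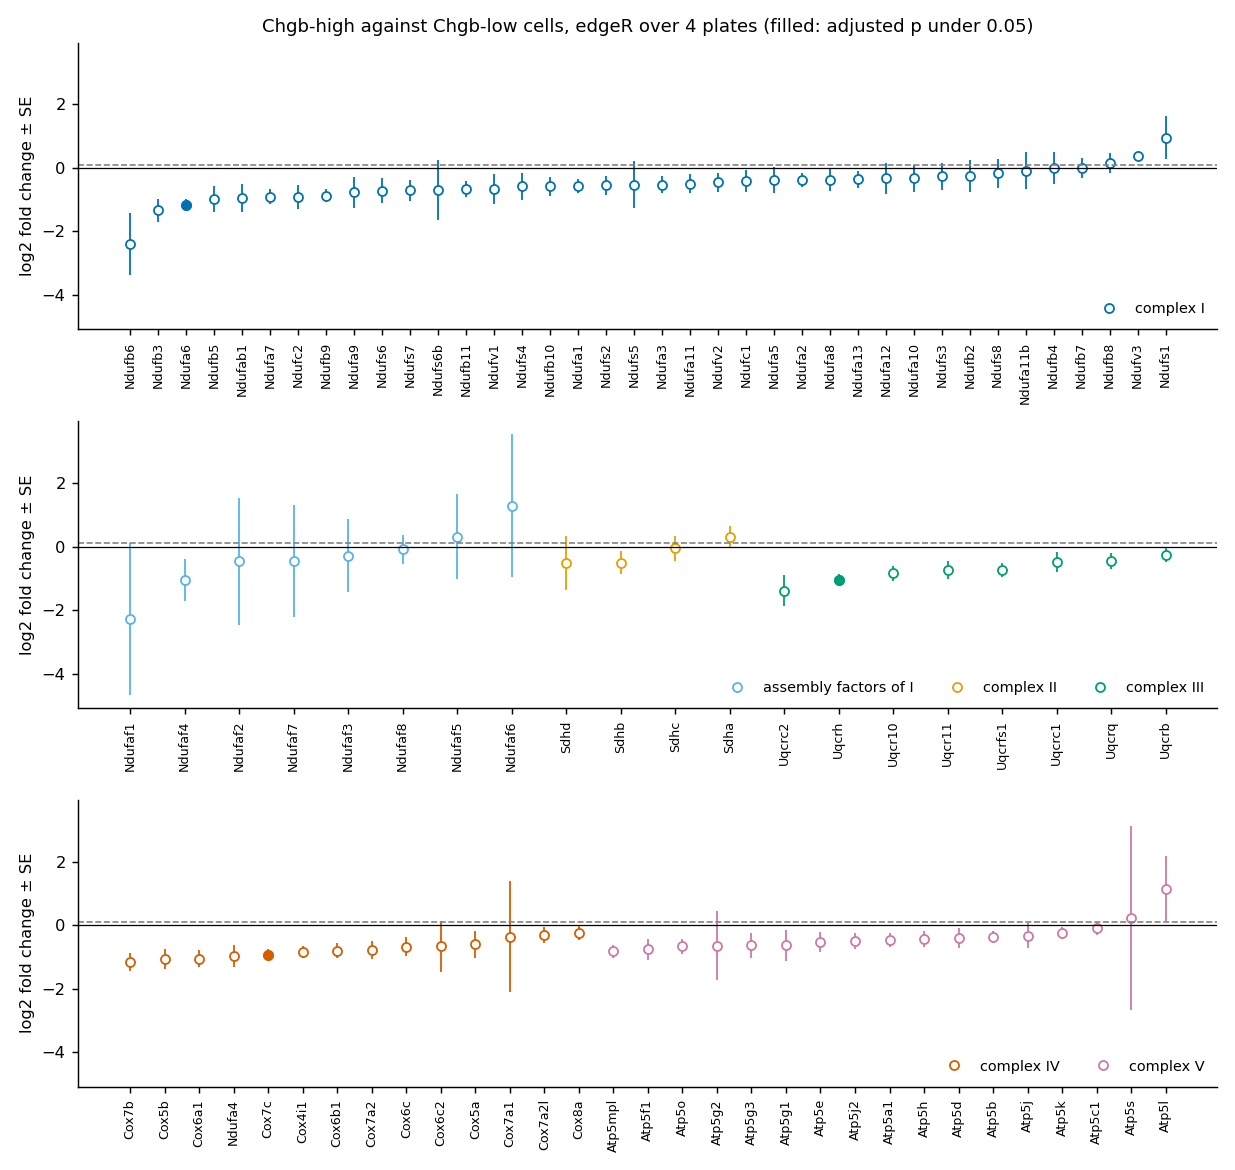
Log2 fold change of each tested member in Chgb-high against Chgb-low cells (y axis, circles, edgeR over 4 plates; bars are SE), with genes on the x axis ordered within complexes, filled circles for adjusted p under 0.05 and a dashed line at the median of all genes, 0.10. The tested members of complexes III and IV lie below 0 (with library totals Uqcrb, Cox7a1, Cox7a2l and Cox8a do not), and the 3 filled circles are Ndufa6, Uqcrh and Cox7c.

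Over all members the summed level was 17999.6 CPM in the Chgb-high cells of plate 1 and 25291.5, 31025 and 30954 CPM in those of plates 2 to 4. The Chgb-low cells held 26784, 37660, 33169 and 32094 CPM. The log2 ratios were -0.57, -0.57, -0.10 and -0.05, with a mean of -0.32 ± 0.29 (SD, n = 4 plates). The difference was larger in plates 1 and 2 than in plates 3 and 4. With TMM factors the mean was -0.63 ± 0.31.

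**Figure D3:**
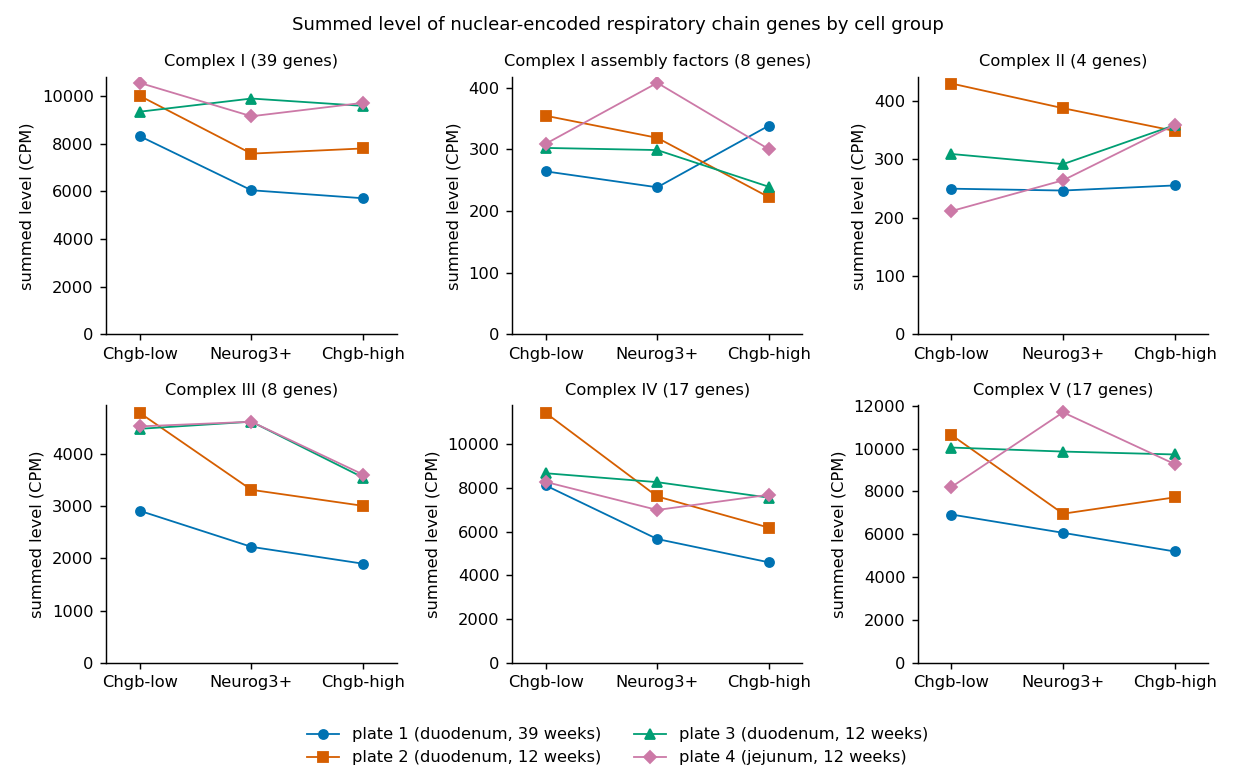
Summed level of the members of each complex (y axis, CPM, from 0) in the 3 cell groups (x axis), 1 line per plate and no error bars because each point is 1 sum. Complexes III and IV are lower in Chgb-high than in Chgb-low cells in all 4 plates, and complex V is lower in the 3 duodenum plates (in all 4 with TMM factors).

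Other gene lists moved beside the chain, and their part in the result was not tested. Of the 12 subunit genes of the mitochondrial genome in the table, 8 were tested and 7 were called lower in Chgb-high cells. They included mt-Nd1 and mt-Nd2 of complex I (log2 fold changes -1.61 ± 0.22 and -1.48 ± 0.19; edgeR adjusted p = 0.00417 and 0.00300) and mt-Cytb of complex III (-1.29 ± 0.19, adjusted p = 0.00581 by edgeR). Their sum was at 27079, 23722, 53010 and 47181 CPM in Chgb-high and 58323, 54732, 76458 and 72477 CPM in Chgb-low cells, without overlap. Transcripts of mt-Co3, mt-Atp6, mt-Nd3 and mt-Nd4l were at or near 0 in all groups, and mt-Co2, the tested gene that was not called, was at 0.774 to 27.0 CPM, so the sum does not stand for the whole mitochondrial genome. Genes of the cytosolic ribosome were lower to a greater degree, with 72 of 79 called and a median of -1.83, and they held 61144 to 125713 CPM in Chgb-high and 195242 to 281570 CPM in Chgb-low cells. The mitochondrial ribosome had 0 of 75 called and a median of -0.65, and 66 were negative (88%, against 47.3% of all genes). Its sum was lower in all 4 plates, by log2 ratios of -0.35, -0.65, -0.17 and -0.26 with library totals. At an unadjusted p under 0.05, 5 were lower (6.67%, against 8.35% of all genes), and DESeq2 called 3 lower (4%, against 6.16%).

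Other metabolic lists had no calls. Glycolysis had 0 of 15 genes called (2 lower at an unadjusted p under 0.05; 0 by DESeq2) and a median of 0.25, and the tricarboxylic acid cycle 0 of 13 (0 at an unadjusted p under 0.05; 1 higher by DESeq2) and a median of -0.29. Assembly factors outside the rule had 0 of 34 called (1 lower at an unadjusted p under 0.05; 0 by DESeq2) and a median of -0.08. Regulators of mitochondrial biogenesis, among them Nrf1, Gabpa, Yy1 and Esrra, had 0 of 12 called (1 lower at an unadjusted p under 0.05; 1 higher by DESeq2) and a median of 0.16, at low counts. Among 9 further chain genes, which include cytochrome c, 0 passed (1 lower at an unadjusted p under 0.05; 1 by DESeq2). The nearest was Atpif1, the inhibitor of ATP synthase, at -1.15 ± 0.30 (edgeR adjusted p = 0.0881). Whether these lists differ from the chain was not tested.

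**Figure D4:**
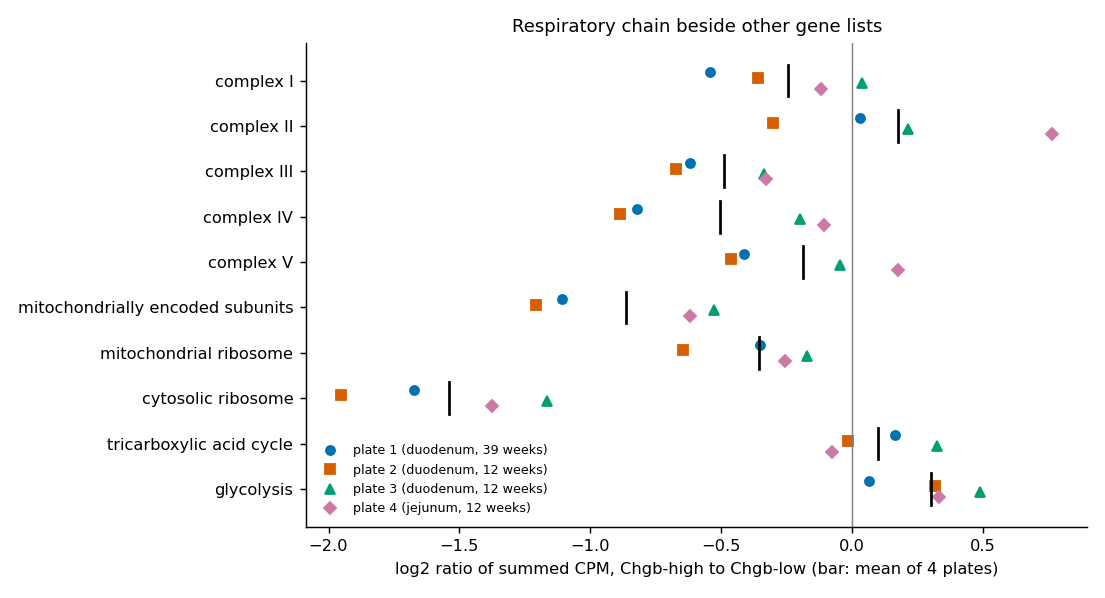
Log2 ratio of summed CPM in Chgb-high to Chgb-low cells (x axis) for 5 complexes and 5 other gene lists (y axis), with 1 symbol per plate and a bar at the mean of 4 plates. The cytosolic ribosome and the mitochondrially encoded subunits lie farthest below 0. Complexes III and IV and the mitochondrial ribosome are also below 0 in every plate. Glycolysis is above 0 in every plate with these library totals but in 2 of 4 with TMM factors.

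Neurog3-positive cells were then set against Chgb-low cells. Of the 50 Neurog3-positive cells, 22 would have met the Chgb-high limit and 24 the Chgb-low limit, so the group mixed both, and its median Chgb in plate 1 was 62162 CPM. By edgeR 0 members were called, with 18 lower (20.2%) and 0 higher at an unadjusted p under 0.05, against 6.17% and 3.41% of all genes. Of all genes, 0.0637% were called higher and 0.0% lower, and DESeq2 called 2 members lower (2.25%, against 3.22% of all genes). Members had a median fold change of -0.46 against -0.36 for all genes, and 77 of 89 were negative (86.5%, against 61.1% of all genes). The summed level gave log2 ratios of -0.39, -0.52, 0.00 and 0.05 in plates 1 to 4 (mean -0.22 ± 0.28, SD), positive in 2 plates and negative in 2. With TMM factors they were -0.61, -0.87, -0.21 and -0.03 (mean -0.43 ± 0.38), negative in all 4. By library totals, the positive values of plates 3 and 4 rested on Atp5g3, without which the sum was lower in both. In plate 4, Atp5g3 held 20934 of 4188210 counts in Neurog3-positive cells and 13716 of 9102669 in Chgb-low cells. Ndufa6 (-0.76 ± 0.19; edgeR adjusted p = 0.192) had the lowest adjusted p of the members.

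Neurog3-positive against Chgb-high cells likewise gave 0 called members by edgeR, with 3 higher and 3 lower at an unadjusted p under 0.05 (3.37% each, against 3.92% and 7.32% of all genes). Of all genes, 0.565% were called higher and 0.111% lower. DESeq2 called Uqcrh higher (adjusted p = 0.0195) and Atp5l lower (adjusted p = 0.0393), as it did 3.11% and 5.41% of all genes. Members had a median of 0.12 against -0.34 for all genes. The summed level was higher in all 4 plates by log2 ratios of 0.19, 0.05, 0.10 and 0.10 (mean 0.11 ± 0.06, SD). In plates 2 and 4, Atp5g3 alone exceeded the whole difference. In plate 4 it held 20934 of 4188210 counts in Neurog3-positive cells and 54553 of 28915627 in Chgb-high cells. Without Atp5g3 the sum was lower in both plates by library totals. In this contrast 44 of 79 cytosolic ribosome genes were called higher, and the subunits of the mitochondrial genome had 0 of 8 called (4 higher by DESeq2). By edgeR, Uqcrh stood at 0.69 ± 0.18 in log2 fold change (adjusted p = 0.181). All 3 contrasts share their groups, so their values are not independent.

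Whole plates were compared by tissue and age with all their cells summed. Jejunum against duodenum, 1 plate against 3, gave 0 members called of 92 tested (0.0% of all 19329 genes in either direction, edgeR), with 1 higher and 1 lower at an unadjusted p under 0.05 (1.09% each, against 2.53% and 1.71% of all genes). By DESeq2, Cox6b2 had a log2 fold change of -19.4, but it had counts in only 0.69% of cells. These were 104 counts in 1 Chgb-high cell and 1 count in 1 Chgb-low cell, both of plate 3. The 39-week duodenum plate against both 12-week plates gave 0 called of 91 (0.0% of 18480 genes, edgeR), with 11 lower and 0 higher at an unadjusted p under 0.05 (12.1% and 0%, against 4.14% and 3.50% of all genes) and a member median of -0.60 against -0.27 for all genes. Age and plate cannot be told apart in this contrast.

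A few members varied widely between plates. Cox5a, a nuclear subunit of complex IV, was at 11.2, 116, 53.0 and 35.1 CPM in plates 1 to 4. Ndufb6 was at 19.5, 151, 158 and 71.4 CPM. Both were lowest in plate 1, the 39-week plate, and DESeq2 called both lower there (adjusted p = 0.000862 and 1.93e-06), 2 of 9 members so called (9.89%, against 3.46% of all genes). The 39-week group was 1 plate, so these p-values assume that it varies like the others. Sdhd was at 10.0, 3.82, 29.3 and 13.8 CPM, and Ndufaf2, Uqcrc2 and Atp5g2 had the largest ranges of their classes, at 2.82, 1.74 and 2.08 on the log2 scale. The median range over the members was 0.86.

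Within plates, members varied from cell to cell with weak correlation among them. The Spearman correlation of a member with the sum of the other members had a median of 0.22, 0.24, 0.20 and 0.24 in plates 1 to 4. It is a description over the 63 to 83 cells of a plate, and the values share each cell's depth and amplification. All cell groups were pooled, so differences between groups enter the correlations. Genes outside the members were not correlated for comparison. Complexes III, IV and V had medians of 0.29 to 0.36, 0.28 to 0.42 and 0.24 to 0.36 over the plates, and the assembly factors 0.03 to 0.07. Cox7c, at 0.61, 0.57, 0.47 and 0.63, and Atp5g3, at 0.48, 0.59, 0.52 and 0.48, were among 9 members above 0.3 in every plate. Ndufv3 was at 0.18, 0.23, -0.06 and 0.08.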

How the data were processed

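Single sorted cells from 4 plates were measured by polyadenylated RNA sequencing with the BD Precise WTA kit. The authors deposited whole-number counts per gene and cell. Per the submitters' processing notes, which give no roles, the tools were bcl2fastq 2.17.1.14, cutadapt 1.10, Bowtie2 2.2.8, STAR 2.5.3a, UMI-tools 0.4.4 and HTSeq 0.6.1, with the mm10 build. Whether copies were collapsed and how reads shared by gene copies were counted is not given in the sources used here.

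Columns were assigned to plates by the number in their names, and 0 of 290 were unassigned. The match of that number to the pool number in the sample titles was the only basis for a plate's tissue and age. No 2 columns were identical, and 88 of 92 well positions recur in more than 1 plate. No further cell filter or doublet caller was applied. Symbols and positions came from GENCODE M21 (GRCm38). Members and lists were chosen with earlier results of these data known. Genes were named by rule: called members, complex II and paralog sets, and the extremes of each complex. Others named were chosen after their values were seen.

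Counts were summed per plate and cell group (12 sums) and tested with edgeR 4.0.16 (TMM factors, filterByExpr, quasi-likelihood test, plate as block, 6 residual degrees of freedom). Sums held 2539032 to 28915627 counts. The common dispersion was 1.19. The SE of an edgeR log2 fold change is its absolute value over the square root of the test's F value. It comes from the fit of all 12 sums, not from the 4 plate ratios alone. Whole plates were fitted in the same way without a block. The pipeline was also run on simulated counts, which had a lower dispersion than these data and no plate effect. That run does not bear on the calls made here. CPM are counts per 1000000 counts of a sum, and TPM divide by exonic length. DESeq2 1.42.0 (an adjusted p of NA stayed NA), other filters, scalings, limits for the groups, thinning to 100000 counts and leaving out plates were tried. The scaling without ribosomal protein genes was added after the data were seen. Intervals of the fits cover variation between plates only, which for the cell groups is the variation of their differences.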

Additional observations from a re-analysis of the deposited data

Results flagged for a closer look

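Each of 71 sets of 4 plate values was examined for a plate far from the other 3, which chance alone would give in about 1 of 20, and 5 were found. The summed level of complex II in Chgb-high cells of duodenum plate 1 was 255 CPM, against 349 to 359 CPM in the other plates. Complex III in Chgb-low cells of duodenum plate 1 was at 2915 CPM, against 4488 to 4793 CPM. Complex IV in Chgb-low cells of duodenum plate 2 was at 11429 CPM, against 8110 to 8667 CPM. Most of that excess was in Cox4i1, whose levels in these cells are given above. Cox6a1 had a log2 ratio of -0.28 between Chgb-high and Chgb-low cells in the jejunum plate, with TMM factors as for the other single genes, against -1.26 to -1.42 in the duodenum plates. Ndufb6 had -4.09 in duodenum plate 1, from 10 counts in Chgb-high cells, against -1.23 to -1.40 elsewhere.

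In 14 of 50 ratios the jejunum plate went opposite to all 3 duodenum plates, a difference that was not tested and rests on 1 jejunum plate. Between Chgb-high and Chgb-low cells the log2 ratio of complex V was 0.18 in jejunum. Ratios of sums are by library totals and those of single members with TMM factors, and with TMM factors complex V was at -0.02, the same sign as duodenum. Single members with a positive jejunum ratio and negative duodenum ratios were Atp5c1 (0.26), Atp5g3 (0.13), Cox7a2l (0.49), Cox8a (0.40), Sdhb (0.38), Sdhd (0.62), Uqcrc2 (0.048) and Ndufaf2 (4.22, from 5 counts in the Chgb-low cells of that plate). Atp5l was the reverse, at -1.27 in jejunum. Between Neurog3-positive and Chgb-low cells, the jejunum ratio was 0.40 for the assembly factors, 0.32 for complex II and 0.51 for complex V. About all of the complex V difference was in 1 gene, Atp5g3, so it does not describe the complex. Atp5g3 held 20934 of 4188210 counts in those Neurog3-positive cells and 13716 of 9102669 in the Chgb-low cells. Between Neurog3-positive and Chgb-high cells the jejunum ratio was -0.14 for complex IV. The jejunum plate held 7 Neurog3-positive cells.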

How the results depend on the processing

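Of 104 recomputed counts of called members, 88 stayed within 1.5 times the reported count. For members lower in Chgb-high against Chgb-low cells (3 reported), the count was 16 with DESeq2, 1 with library totals alone (where 1 member, Ndufv3, was called higher), 7 with Neurog3-positive cells kept in the Chgb groups, 6 with Chgb limits of 5000 and 1000 CPM, and 0 without the replicate block. Leaving out each plate gave 0 to 1. DESeq2 called 2 members lower in Neurog3-positive against Chgb-low cells, 1 higher and 1 lower against Chgb-high cells, 1 lower in jejunum and 9 lower at 39 weeks. Without a filter, 3 were lower at 39 weeks. The cause of these differences was not tested. Shares of all genes called were worked out only for the reported edgeR fits and for DESeq2. Counts in the other settings have no such share beside them, so they are not a result about the members alone. Duodenum replicate 1 and jejunum replicate 1 share only a number, and the block is the plate, which all 3 cell groups share.

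The summed level of all members stayed within 1 SD of the reported log2 ratio in 33 of 37 settings. With TMM sizes it was -0.63 for Chgb-high against Chgb-low cells and 0.20 for Neurog3-positive against Chgb-high cells. For the latter it was 0.022 without granin, hormone and secretory genes in the total, and 0.21 when ribosomal protein and mitochondrial genes were also left out.

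Among single members, the log2 fold change between Chgb-high and Chgb-low cells changed sign in 24 of 435 settings, in none of them past the threshold. With library totals it was 0.21 for Atp5c1, 0.016 for Cox7a1, 0.0052 for Cox7a2l, 0.070 for Cox8a, 0.23 for Ndufaf8, 0.28 for Sdhc and 0.052 for Uqcrb. Without the Chgb-low cells rich in goblet and Paneth markers it was 0.77 for Cox7a1 and 1.60 for Ndufaf2, and after thinning it was 0.021 for Cox7a1. Ndufb7, reported at 0.01, was at -0.0047 with DESeq2, -0.075 with Neurog3-positive cells kept, -0.022 with the other Chgb limits, -0.038 after thinning, -0.011 without the replicate block and -0.086 without ribosomal protein, mitochondrial and secretory genes in the TMM factors. Over the fits that leave out 1 plate, the values ran from -1.18 to 0.033 for Atp5g2, -1.80 to 1.37 for Cox7a1, -1.96 to 0.78 for Ndufaf2, -0.55 to 0.34 for Ndufaf8, -0.18 to 0.23 for Ndufb7 and -0.42 to 0.30 for Sdhc. The sparse members, such as Cox7a1 and Ndufaf2, are limited by the few cells that hold their counts.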
